A study of Mus musculus with 2 samples.

Results

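The clustered replication-dependent histone genes supply the histones that package newly copied DNA. They were taken as all protein-coding genes of GENCODE vM21 on GRCm38 whose symbol starts with Hist1, Hist2, Hist3 or Hist4 followed by h, which gave 67 of 21938 protein-coding genes. No measured value entered this choice. The members comprise 6 genes for the linker histone H1, 18 for H2A, 18 for H2B, 12 for H3 and 13 for H4. Accessibility of chromatin was profiled with ATAC-seq, in which a transposase inserts sequencing adapters into open DNA, in 2 replicate samples of LβT2 cells. LβT2 is an immortalized mouse line of pituitary gonadotropes, the cells that secrete luteinizing and follicle-stimulating hormone, and the cells had been passaged 21 times. Both samples received the same treatment, 4 pulses of 2 nM GnRH given every 2 h over 6 h 45 min, and were harvested 45 min after the last pulse, with 4500 cells in each reaction. Cells without GnRH are not analysed here, and all values describe 1 condition with n = 2.

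H2A, H2B, H3 and H4 form the core particle around which DNA is wrapped, and H1 binds the DNA between particles. Cells make most of these proteins in S phase from clustered genes whose mRNAs end in a conserved stem-loop in place of a poly(A) tail. The stem-loop is bound by SLBP, and transcription of the clusters is organised at a nuclear body by NPAT, a substrate of cyclin E and CDK2. Subtype elements in the promoters are bound by OCT1 (Pou2f1) at H2B genes and by HINFP at H4 genes. Some genes of the clusters are instead made in the testis, where Hist1h1t, Hist1h2ba and Hist1h2aa encode the linker histone H1t and the variants TH2B and TH2A.

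Promoter sequences of 3 H4 genes, 4 head-to-head pairs, 2 H1 genes and 1 H3 gene are shown first, with promoter elements in capitals. Whether accessibility depends on these letters was not tested. All were read 5′ to 3′ from GRCm38 upstream of the most upstream annotated start site. In the H4 genes the capitals mark GGTCCG, the core of the HINFP element, and in Hist1h4a, which lacks it, the cyclic AMP response element TGACGTCA. Hist4h4 had the most significant promoter peak of all members, Hist1h4c is in the list of S phase genes that the study used, and Hist1h4a is the exception among the H4 genes.
Hist4h4 (chr6:136804432-136804551, minus strand): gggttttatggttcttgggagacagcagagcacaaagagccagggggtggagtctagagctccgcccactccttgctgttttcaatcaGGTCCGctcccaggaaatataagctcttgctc
Hist1h4c (chr13:23698459-23698578, minus strand): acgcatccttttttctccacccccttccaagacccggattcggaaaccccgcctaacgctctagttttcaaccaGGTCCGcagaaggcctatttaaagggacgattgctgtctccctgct
Hist1h4a (chr13:23761250-23761369, minus strand): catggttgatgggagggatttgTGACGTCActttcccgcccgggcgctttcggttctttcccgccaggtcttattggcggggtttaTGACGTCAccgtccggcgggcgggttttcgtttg

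H2A and H2B genes often stand head to head, and the stretch between them serves both. In the next sequences, written on the plus strand, the capitals mark the octamer ATTTGCAT, the TATA box TATAAA, the CCAAT box and the E2F site TTTCGCGC on either strand. The pair of Hist1h2ah and Hist1h2bk is shown because the printed stretch lay wholly under a peak in both replicates. This print does not hold the whole E2F site and TATA box, which start at −95 and −76 bp from the start codon of Hist1h2ah. The pair of Hist1h2ac and Hist1h2bc is shown because Hist1h2ac is an S phase gene of the study. That of Hist1h2ag and Hist1h2bj had E2F letters and no octamer, and at that of Hist1h2ba and Hist1h2aa no peak was detected.
Hist1h2ah/Hist1h2bk (chr13:22035644-22035820): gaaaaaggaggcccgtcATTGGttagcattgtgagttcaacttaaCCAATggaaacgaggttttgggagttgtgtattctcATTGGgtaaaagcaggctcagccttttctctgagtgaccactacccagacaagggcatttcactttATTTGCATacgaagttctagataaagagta
Hist1h2ac/Hist1h2bc (chr13:23683960-23684198): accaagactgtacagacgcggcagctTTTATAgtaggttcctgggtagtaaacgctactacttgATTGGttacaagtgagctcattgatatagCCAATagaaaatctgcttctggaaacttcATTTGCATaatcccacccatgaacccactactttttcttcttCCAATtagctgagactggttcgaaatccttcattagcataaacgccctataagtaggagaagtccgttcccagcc
Hist1h2ag/Hist1h2bj (chr13:22042950-22043197): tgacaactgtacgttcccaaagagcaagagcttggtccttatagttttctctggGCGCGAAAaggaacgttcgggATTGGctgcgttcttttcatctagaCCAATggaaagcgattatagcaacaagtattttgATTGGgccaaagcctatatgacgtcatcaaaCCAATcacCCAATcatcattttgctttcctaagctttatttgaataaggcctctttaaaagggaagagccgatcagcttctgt
Hist1h2ba/Hist1h2aa (chr13:23934157-23934436): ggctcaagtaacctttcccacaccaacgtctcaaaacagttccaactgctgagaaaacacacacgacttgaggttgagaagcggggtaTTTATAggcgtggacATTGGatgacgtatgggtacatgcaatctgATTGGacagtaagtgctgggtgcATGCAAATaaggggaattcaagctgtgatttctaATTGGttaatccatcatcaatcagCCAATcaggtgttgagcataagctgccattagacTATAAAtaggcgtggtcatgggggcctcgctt

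For H1 and H3 the capitals mark the H1 box AAACACA, the CCAAT box and the TATA box. Hist1h1c is a somatic H1 gene that, unlike the 4 others, lacks the exact letters TATAAA. Hist1h1t is the testis gene, and Hist1h3a is an H3 gene with CCAAT and TATA letters.
Hist1h1c (chr13:23738657-23738806, plus strand): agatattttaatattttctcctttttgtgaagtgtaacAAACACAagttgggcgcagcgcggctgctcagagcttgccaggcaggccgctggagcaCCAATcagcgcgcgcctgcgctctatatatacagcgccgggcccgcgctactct
Hist1h1t (chr13:23695661-23695810, plus strand): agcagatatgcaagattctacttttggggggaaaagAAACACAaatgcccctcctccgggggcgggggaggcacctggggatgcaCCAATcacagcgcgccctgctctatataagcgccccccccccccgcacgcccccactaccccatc
Hist1h3a (chr13:23762387-23762506, minus strand): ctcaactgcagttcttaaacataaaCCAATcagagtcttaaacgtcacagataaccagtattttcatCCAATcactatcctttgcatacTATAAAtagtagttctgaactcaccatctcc

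The 2 replicates have separate peak lists, and each peak carries a q-value. A promoter peak was the peak with the highest −log10 q that overlapped the 500 bp on either side of any annotated start site. The number of tags, sequencing reads extended to 200 bp, at each summit was solved from the deposited fold and p-value. The lists hold 58519 and 64984 peaks, with backgrounds of 3.05 and 3.54 tags, lowest peaks of 10 and 11 tags and median peaks of 14 and 16 tags. Where a promoter has no peak, none could be detected with the authors' peak calling settings and at this depth, which the files do not give. The samples are bulk, so that more cells with an open promoter and more cuts per open promoter cannot be told apart. Of the gonadotrope markers, Lhb, Cga and Gnrhr had promoter peaks in both replicates, Nr5a1 and Foxl2 in replicate 2 alone, and Pitx1, Lhx3 and Fshb in neither, whereas 0 of 6 genes of other pituitary lineages had one.

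Most of the histone genes had a promoter peak, but mostly with a summit whose 50 bp they share with each other. A peak was found at 44 of 67 members in replicate 1 (65.7%) and at 62 in replicate 2 (92.5%), and all 44 had one in both. Over all protein-coding genes the shares were 31.4% in replicate 1, 43.6% in replicate 2 and 30.2% in both. With summits in single-copy sequence, whose 50 bp occur once in the genome, the order was the reverse, at 10.4% and 20.9% of members against 29% and 41.1% of all coding genes, and the count in both replicates was 3. A minimum −log10 q of 5 left 23 in both replicates, a count that has no share over all coding genes beside it. Counting any summit, another 18 members had a peak in replicate 2 alone, none in replicate 1 alone and 5 in neither. The 44 members lay under 34 separate peaks and the 62 under 48, since neighbouring genes shared 10 and 14 of them. The peaks were no higher than at other genes. The median −log10 q of members was 5.50 and 11.7 in the 2 replicates (mean 8.59 ± 4.38, SD, n = 2), against 6.97 and 12.5 over all coding genes with a peak. Their median tags were 17 and 26, against 19 and 27.

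Other histone genes served for comparison. Genes for replication-independent histones, which are also made outside S phase, had peaks at 6 of 11 promoters in both replicates. The highest were H2afv, with −log10 q of 19.7 and 36.0, H3f3b, with 11.1 and 32.6, and H2afj, with 7.74 and 31.5. H1f0 and Cenpa, the centromeric H3, had a peak in replicate 2 alone, and H1fx, H2afy and H2afy2 in neither. Of the germline histone genes H1foo, H1fnt, Hils1, H2afb1, H2afb2 and H2afb3, 0 of 6 had a peak in either replicate.

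Factors that act on the clustered genes or their products formed another set of lists. The machinery of histone gene expression stood at 14 of 19 in both replicates. Its highest genes were Casp8ap2, a partner of NPAT in the nuclear body, with −log10 q of 12.9 and 71.1, Npat itself with 11.95 and 30.4, and the cyclin E gene Ccne2 with 6.97 and 32.6. Lsm10, Eri1 and Yy1 had a peak in replicate 2 alone, Coil in replicate 1 alone and Cdk2 in neither. The binding factors named above stood at 10.2 and 23.0 for Hinfp, 12.9 and 17.1 for Pou2f1 and 5.50 and 13.4 for Slbp. Histone chaperones, which hand histones to DNA, stood at 8 of 11, led by Chaf1a with 12.9 and 41.9, Chaf1b with 21.7 and 32.6 and Hira with 16.6 and 34.9, while Nasp, Asf1a and Rbbp4 had a peak in replicate 2 alone. Replication genes stood at 28 of 44, led by Mcm3, Mcm4 and Gins2, and genes for cytosolic ribosomal proteins at 47 of 77, with Rpl15 and Rpl37 highest.

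**Figure D1:**
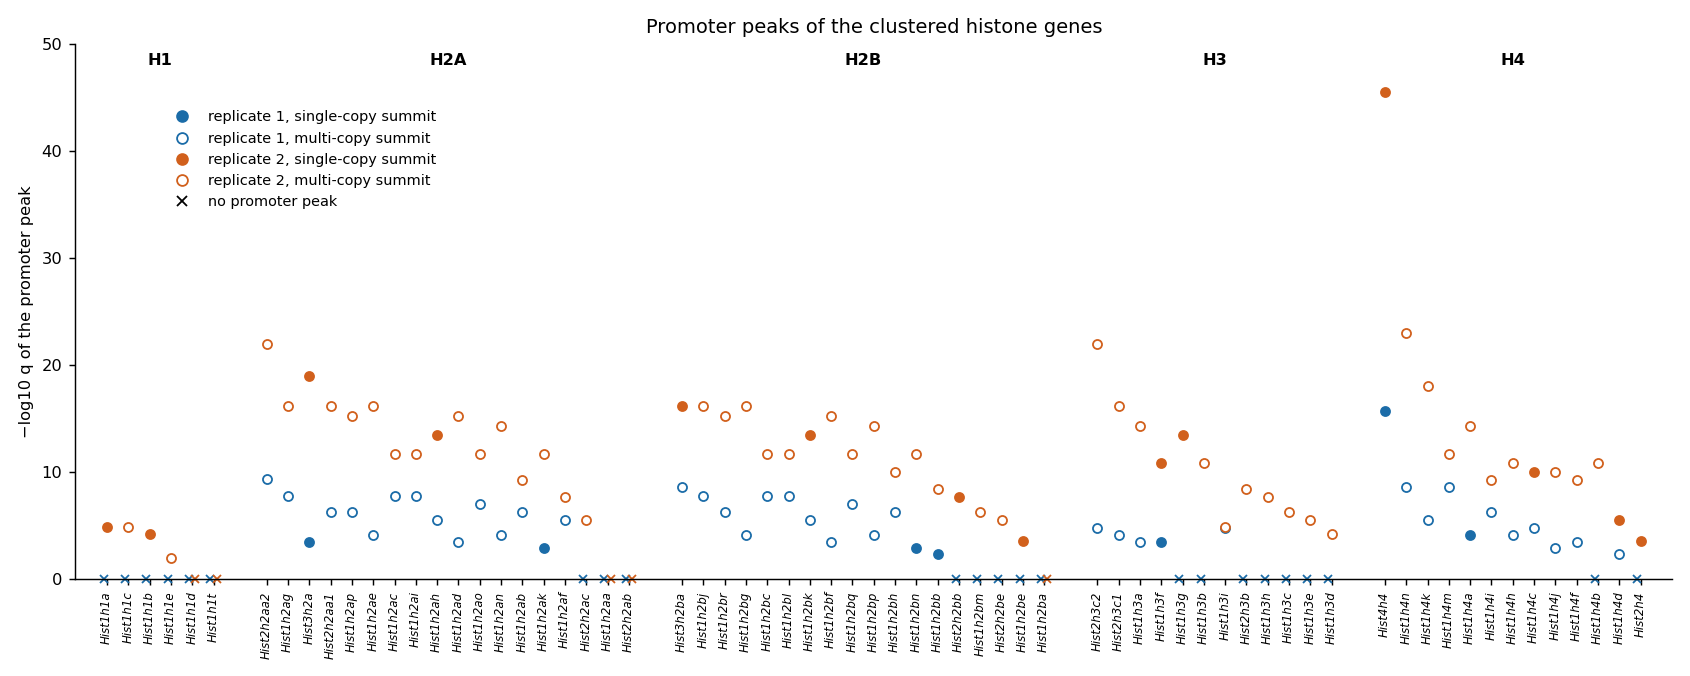
The −log10 q of the promoter peak of each of the 67 members, ordered by histone type and then by height, in replicate 1 (blue) and replicate 2 (orange). Filled points have a summit whose 50 bp occur once in the genome and crosses mark genes with no promoter peak. Hist4h4 stands apart at 15.7 and 45.5, and the H1 genes have no point for replicate 1.

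The linker histone genes had the lowest median −log10 q of the types in replicate 2, at 4.52 over 4 genes, though single genes of other types had low peaks too. None of the 6 H1 genes had a promoter peak in replicate 1, where 31.4% of all coding promoters had one, and 4 had one in replicate 2, where 43.6% did. In replicate 2 the −log10 q was 4.84 for both Hist1h1a and Hist1h1c, at 17 tags each, 4.19 for Hist1h1b at 16 tags and 1.91 for Hist1h1e at 12 tags. These 4 values lay below the replicate 2 medians of all other types, the lowest of which was 9.64 for H3. H1 coding parts are mostly single-copy, unlike those of the other types. Counting single-copy summits in replicate 2, H1 stood at 2 of 6, H2A at 2 of 18, H2B at 4 of 18, H3 at 2 of 12 and H4 at 4 of 13. Hist1h1t, the testis gene, had no peak in either replicate. Hist1h1d also had none, but its annotated start site lies 1828 bp before its start codon. At the start codon of Hist1h1d, a peak of replicate 2 had −log10 q of 2.99 and 14 tags. With windows around start codons, a choice made after seeing the data, 5 of 6 H1 genes had a peak in replicate 2 and 0 in replicate 1.

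H2A genes had a promoter peak in both replicates at 15 of 18, a count that fell to 1 with single-copy summits. A peak in a head-to-head partner could count here. The median −log10 q of H2A genes was 6.22 and 13.9. Hist2h2aa2 was highest among them, at 9.36 and 22.0 (mean 15.7 ± 8.92, SD, n = 2). It was followed by Hist1h2ag, at 7.74 and 16.1 (mean 11.9 ± 5.94, SD, n = 2). The 50 bp at the summit of Hist2h2aa2 had 2 copies in the genome in both replicates, and 0% of its coding part was single-copy. The lowest were Hist1h2af, at 5.50 and 7.67, and Hist1h2ak, at 2.88 and 11.7. Hist1h2ac, one of the S phase genes of the study, lay between them at 7.74 and 11.7, with 20 and 26 tags. Hist2h2ac had a peak in replicate 2 alone, with −log10 q of 5.51 at 18 tags. The genes without any were the testis gene Hist1h2aa and Hist2h2ab. The other 10 H2A genes, among them Hist3h2a described with its cluster, had peaks in both replicates with means between 7.72 and 11.2.

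H2B genes had peaks in both replicates at 13 of 18 promoters, and at 17 in replicate 2. The median −log10 q was 6.22 and 11.7. Hist3h2ba was highest, at 8.54 and 16.1 (mean 12.3 ± 5.38, SD, n = 2), and Hist1h2bj came next with the same values as its partner Hist1h2ag, since both lay under 1 peak. The lowest were Hist1h2bb, at 2.31 and 8.44, and Hist1h2bn, at 2.88 and 11.7. Peaks were found in replicate 2 alone at Hist2h2bb, at 7.67 with 21 tags, at Hist1h2bm, at 6.21 with 19 tags, and at Hist2h2be, at 5.51 with 18 tags. Hist1h2be was the fourth of this kind, at 3.57 with 15 tags. Its annotated start site lies 35168 bp from its start codon, however, and at the start codon peaks of both replicates were found, with −log10 q of 3.49 and 10.0. The testis gene Hist1h2ba had no peak. The other 9 H2B genes had peaks in both replicates with means between 8.12 and 10.7.

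H3 genes had the widest gap in counts between the replicates, though by share that of H1 was wider. H3 genes had a peak at 5 of 12 promoters in replicate 1 and at 12 of 12 in replicate 2. Hist2h3c2 was the highest of the 5, at 4.80 and 22.0 (mean 13.4 ± 12.1, SD, n = 2), followed by Hist2h3c1 at 4.13 and 16.1. The replicate 2 peak of Hist2h3c2, however, had its summit at −1163 bp from its start site, in the promoter of Hist2h2aa2, so that 22.0 is the height there. Hist1h3i had almost equal values of 4.80 and 4.84, and Hist1h3f stood at 3.49 and 10.8. The fifth gene, Hist1h3a, stood at 3.49 and 14.3, and its replicate 2 summit lay 1353 bp away in Hist1h4a. The order of the H3 genes therefore rests on peaks shared with neighbours. Among the genes with a peak in replicate 2 alone, Hist1h3g reached 13.4 at 28 tags and Hist1h3b 10.8 at 25 tags. The others were Hist2h3b at 8.44, Hist1h3h at 7.67, Hist1h3c at 6.21, Hist1h3e at 5.51 and Hist1h3d at 4.19. These 7 peaks held 16 to 28 tags.

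H4 genes had peaks in both replicates at 11 of 13 promoters, and in replicate 2 at 13. Hist4h4 had the highest −log10 q of all 67 members in both replicates, at 15.7 with 29 tags and 45.5 with 58 tags (mean 30.6 ± 21.1, SD, n = 2). Its fold over background was 7.41 and 13.01, and it ranked at percentiles 81.4 and 91.1 of all coding promoter peaks. Hist1h4n came next at 8.54 and 23.0. The lowest were Hist1h4d, at 2.31 and 5.51, and Hist1h4f, at 3.49 and 9.22. Hist1h4c, the other S phase gene of the study, stood at 4.80 and 10.0, with 16 and 24 tags. Peaks in replicate 2 alone were found at Hist1h4b, at 10.8 with 25 tags, and at Hist2h4, at 3.57 with 15 tags. The other 6 H4 genes had means between 6.45 and 11.8.

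The 4 clusters differed less in replicate 2 than in replicate 1, and the differences were not tested. In replicate 2, 92.6% of Hist1, 90% of Hist2 and 100% of Hist3 and Hist4 members had a peak, against 43.6% of all coding genes. In both replicates the shares were 68.5%, 40%, 100% and 100%, against 30.2%. Hist3 and Hist4 hold only 2 and 1 members. Hist1 on chromosome 13 holds 54 members, of which 37 had a peak in both replicates. A gap of more than 200 kb splits it into a block of 23 members over 328 kb, where 20 had a peak in both and all 23 had one in replicate 2, and a block of 31 members over 404 kb, where 17 had one in both and 27 in replicate 2. The blocks also differed in the types they hold, with 1 H1 gene in the first and 5 in the second, and 2 and 7 H3 genes. Within H3, 1 of 2 and 2 of 7 genes had a peak in both replicates, and within H4 5 of 5 and 5 of 6. Hist2 on chromosome 3 had 4 of 10 members with a peak in both replicates and 9 in replicate 2. The 4 were Hist2h2aa1, Hist2h2aa2, Hist2h3c1 and Hist2h3c2, which lie in a duplicated stretch of the genome.

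The small clusters were open in both replicates. Hist3 on chromosome 11 holds Hist3h2ba, whose values were given with the H2B genes, and Hist3h2a, with −log10 q of 3.49 at 14 tags and 19.0 at 34 tags. Hist3h2a had a single-copy summit in both replicates, at 61 and 151 bp before the start codon. Hist4 on chromosome 6 holds Hist4h4 alone, whose summit lay at 38 bp before the start codon in replicate 1 and 34 bp after it in replicate 2.

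Within the clusters, the peaks lay mainly at the histone genes. Of the peaks between the outermost members, 36 of 43 in replicate 1 (83.7%) and 49 of 60 in replicate 2 (81.7%) overlapped a member promoter. The first Hist1 block held 4.88 and 6.71 peaks per 100 kb, the second 4.95 and 6.93 and Hist2 7.96 and 13.9, against 2.13 and 2.37 over all chromosomes. The most significant of the other peaks, at chr13:21764406-21765132 in replicate 2 with −log10 q of 27.2, had a summit sequence with 77 copies in the genome. The peaks of the second Hist1 block with the most copies had 577 in replicate 1 and 888 in replicate 2.

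The genes of a type are nearly identical in their coding part, and this decides what a peak there can tell. All 13 H4 genes encode 1 protein from 12 distinct coding sequences, and the 12 H3 genes encode 2 proteins, whereas the 6 H1 genes encode 6. Between genes of equal coding length the median identity of the coding sequences was 96.7% for H2A, 97.4% for H2B, 97.2% for H3 and 93.9% for H4. Single-copy positions were those whose surrounding 50 bp occur at 1 place of the genome. The median share of single-copy positions in the coding part was 25.8% for H2A genes, 28.3% for H2B, 24.6% for H3, 37.5% for H4 and 89.9% for H1. In the 250 bp before the start codon the median was 100% for every type. Reads from multi-copy sequence can be placed at any of its copies, so the tags of a peak there need not come from the gene they are counted at. How the mapping divided such reads was not tested.

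Most summits lay in this shared sequence when 50 bp were compared, but not when 200 bp were. The 50 bp at the summit were multi-copy for 28 of 34 peaks in replicate 1 (82.4%) and 35 of 48 in replicate 2 (72.9%), against 7.94% and 6.10% of all coding promoter peaks. The median number of copies was 8.5 and 6, and the highest 18 and 16. For 27 of the 28 and 33 of the 35, every copy lay within 1500 bp of a member. When 200 bp were used in place of 50 bp, 32.4% and 29.2% of the summits were multi-copy. Summits fell inside a coding part in 24 of 34 and 39 of 48 peaks, at a median of 172.5 and 132 bp after the start codon, and in the 250 bp before it in 10 and 8. Of the coding summits, 24 of 24 and 33 of 39 were multi-copy.

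**Figure D2:**
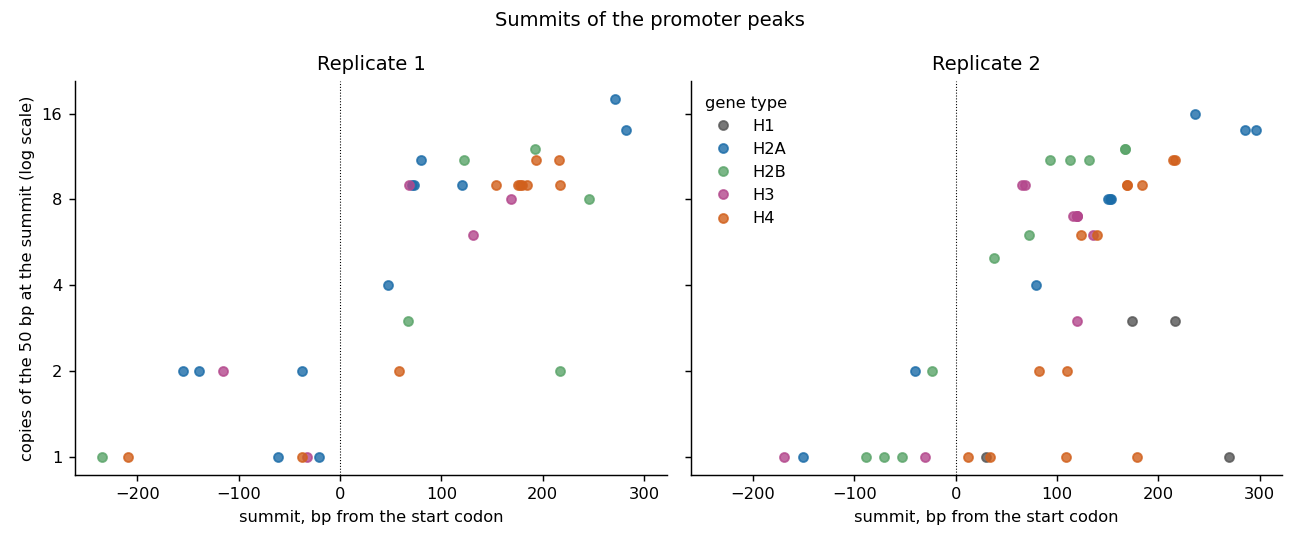
Position of each summit from the start codon of the member it lies in or before (horizontal axis, bp) against the number of genomic copies of the 50 bp at the summit (vertical axis, log scale), for replicate 1 (left) and replicate 2 (right), coloured by histone type. The summits with 4 or more copies all lie after the start codon, and the highest counts are 18 and 16.

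The summits lay further downstream than at other genes. Measured from the nearest start site, the median position over members was 99 bp after it in replicate 1 and 120 bp after it in replicate 2 (mean 109.5 ± 14.8, SD, n = 2). Over all coding genes it was 50 and 35 bp before the start site. By type the medians of replicate 2 were 246 bp for H1, 50.5 for H2A, 3 for H2B, 159.5 for H3 and 177 for H4, all after the start site. For H2A in replicate 1 the median was 6 bp before the start site and for H2B 230 bp before it. The summit of a shared peak counts for both genes of a head-to-head pair, so that a summit in one gene lies upstream of the other. The peaks of members had median widths of 328.5 and 482 bp, against 390 and 500 bp over all coding promoters. For 13 members the annotated start site is the first base of the start codon, which shortens the distance to a summit downstream. A summit lay more than 500 bp from the gene's own start site, within a neighbour, for 3 members in replicate 1 and 5 in replicate 2.

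Along the genes, coverage by peaks was higher in the coding part than before it in both replicates. At 100 bp before the start codon, 34.3% of members were under a peak in replicate 1 and 64.2% in replicate 2. At 100 bp after it the shares were 53.7% and 92.5%, and at 400 bp after it 2.99% and 16.4%. Over the same positions single-copy sequence made up 85.1%, 29.9% and 79.1% of the members.

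**Figure D3:**
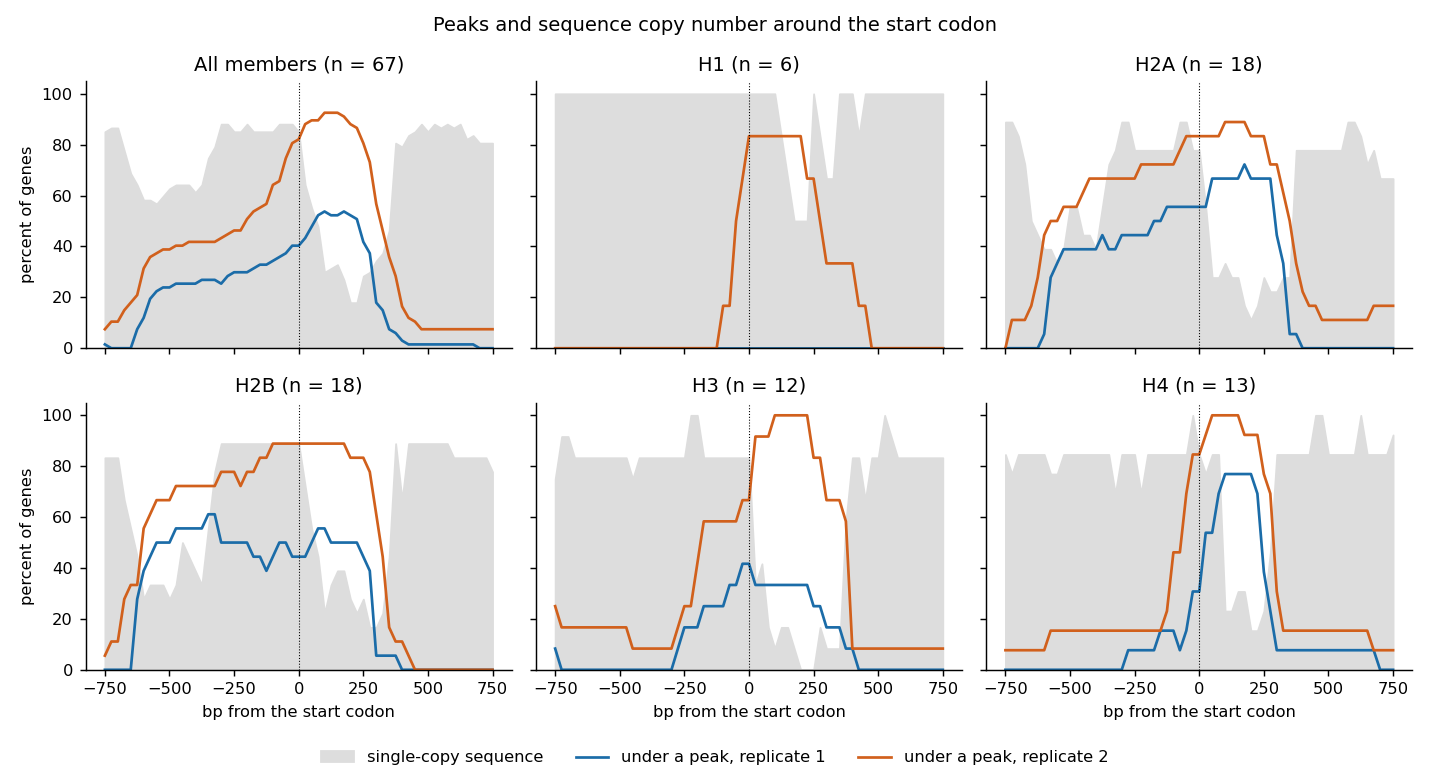
Percent of genes under a peak at each distance from the start codon, in replicate 1 (blue line) and replicate 2 (orange line), and percent of genes with single-copy sequence there (grey area), for all members and for each type. Over all members coverage is highest between 100 and 175 bp after the start codon, at 53.7% and 92.5%, but in replicate 1 it is highest before the start codon for H2B and at or just before it for H3, and the H1 panel has no coverage in replicate 1.

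The single-copy stretch before the start codon has sequence of 1 gene or 1 pair, but a peak over it need not come from that sequence. Coverage of this stretch was a measure chosen after seeing the data, and it was not taken over all coding genes. Of the 57 members with at least 100 single-copy positions in the 250 bp before the start codon, 21 in replicate 1 and 40 in replicate 2 had at least 50 of them under a peak, and 20 had so in both. In replicate 2 H1 stood at 3 of 6 and H3 at 5 of 10. By type the counts in both replicates were 0 of 6 for H1, 8 of 14 for H2A, 9 of 16 for H2B, 1 of 10 for H3 and 2 of 11 for H4. The H3 gene was Hist1h3f and the H4 genes Hist1h4a and Hist4h4. Because tags had been extended to 200 bp, a peak may reach into this stretch from cuts in the coding part. In the stretches printed above, 98 and 120 of 120 bp lay under a peak in the 2 replicates for Hist4h4, 118 and 120 for Hist1h4a, 0 and 0 for Hist1h4c and 0 and 120 for Hist1h3a. For the H1 genes, 0 and 32 of 150 bp were covered for Hist1h1c and 0 and 0 for Hist1h1t. Hist1h4c had peaks over its coding part that did not reach its HINFP element.

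Few members had a summit of their own in both replicates. A promoter peak with a single-copy summit was found at 7 of 67 members in replicate 1 and 14 in replicate 2, against 29% and 41.1% of all coding genes. Hist3h2a, Hist1h3f and Hist4h4 had one in both. In Hist1h3f the summits lay at 33 and 30 bp before the start codon, within 3 bp of each other, with 14 and 25 tags. At the other end stood the duplicated genes Hist1h2ao, Hist1h2ap, Hist1h2bq and Hist1h2br, whose promoter windows held no single-copy position, and Hist1h4m, Hist1h4n, Hist2h3c1 and Hist2h3c2, with 5.21% to 6.25%. The values of these genes cannot be told apart from those of their copies. The median over members was 71.9%, and over all coding genes 100%.

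Head-to-head pairs of H2A and H2B genes often lay under 1 peak in replicate 2 and less often in replicate 1. Of 13 pairs on opposite strands with start sites up to 1000 bp apart, 12 joined an H2A with an H2B gene, at 176 to 306 bp, and 1 joined Hist1h2bh with Hist1h3f at 660 bp. A single peak covered both start sites in 5 of 12 pairs in replicate 1, 10 in replicate 2 and 5 in both. Those 5 were Hist1h2bq/Hist1h2ao, Hist1h2ap/Hist1h2br, Hist1h2ah/Hist1h2bk, Hist1h2ag/Hist1h2bj and Hist1h2ae/Hist1h2bg. The whole stretch printed above for Hist1h2ah/Hist1h2bk, 177 bp, lay under a peak in both replicates, as did the 248 bp of Hist1h2ag/Hist1h2bj. Of the 239 bp of Hist1h2ac/Hist1h2bc, 146 bp were covered in replicate 1, where each gene had its own peak, and 239 bp in replicate 2. In replicate 1 no peak reached between the start sites of Hist1h2bl/Hist1h2ai and Hist1h2an/Hist1h2bp.

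Most summits of these wide peaks lay within the genes and not between them. A summit of any peak over the pair was found between the start codons in 3 of 12 pairs in replicate 1 and 2 in replicate 2. The gene that held the summit could change between replicates, as for Hist1h2ae/Hist1h2bg, with the summit in Hist1h2bg in replicate 1 and in Hist1h2ae in replicate 2. The testis pair Hist1h2ba/Hist1h2aa had no peak in either replicate, and its stretch of 280 bp printed above holds the octamer, TATA and CCAAT letters. Hist2h2ac/Hist2h2be had a peak of 339 bp in replicate 2 over Hist2h2ac. Among H2A and H2B genes, 20 of 24 in such pairs had a promoter peak in both replicates, and 8 of 12 outside them. Paired start sites lay 176 to 306 bp apart, within the 500 bp window, so that a peak at either gene could count for both. These shares can therefore not be compared.

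**Figure D4:**
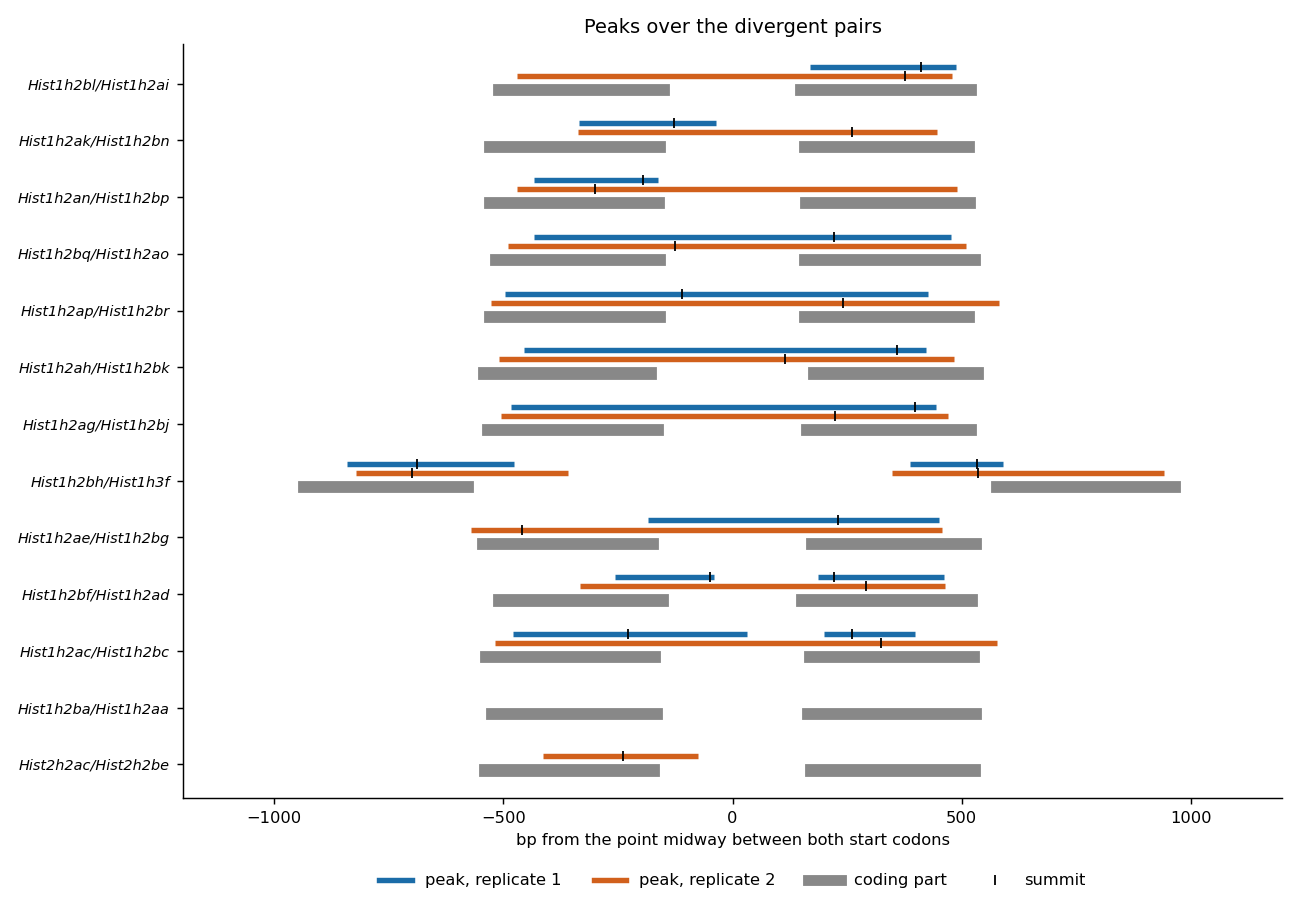
Peaks over the 13 head-to-head pairs, in bp from the point midway between both start codons, with replicate 1 in blue, replicate 2 in orange, the coding parts in grey and summits as black ticks. Peaks of replicate 2 span both genes in 10 pairs, and Hist1h2ba/Hist1h2aa has none.

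The HINFP core marked nearly all H4 promoters, and the octamer a smaller share of the H2A and H2B promoters. Motifs were searched as exact letters on either strand from 250 bp before to 50 bp after the start site of the main transcript, and a match is a description of sequence, not of binding. GGTCCG was present in 12 of 13 H4 promoters (92.3%), all but Hist1h4a, against 10.3% of all coding promoters. Counted from the start codon its first base lay between 85 and 55 bp upstream. Of the 12, 10 had a promoter peak in both replicates and 2 in replicate 2 alone, and Hist1h4a, without the letters, had one in both. The octamer ATTTGCAT was present in 7 of 18 H2A and 8 of 18 H2B promoters and in 0 of the other types, against 1.60% of all coding promoters. Of these 15 genes 9 had a peak in both replicates, 4 in replicate 2 alone and 2, the testis pair, in neither. With or without the octamer, 15 of 18 H2A and 13 of 18 H2B genes had a peak in both.

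The remaining elements divided the types less sharply. CCAAT was present in all 18 H2A and all 18 H2B promoters, in 11 of 12 H3, 5 of 6 H1 and 4 of 13 H4, against 38.6% overall. TATAAA was present in 37 of 67 (55.2%), against 12.5%, with 4 of 12 in H3. Counted in the 250 bp before the start codon it was present in 8 of 12 H3, 4 of 6 H1, 11 of 18 H2A, 9 of 18 H2B and 7 of 13 H4 genes. In the same stretch CCAAT was present in 12 of 12 H3 and 6 of 6 H1 genes. The H1 box was present there in 5 of 6 H1 genes and the octamer in 9 of 18 H2B genes. The H1 box AAACACA was present in 4 of 6 H1 promoters, including that of Hist1h1t, against 6.34%. Either E2F site, TTTGGCGC or TTTCGCGC, was present in 5 H2A and 4 H2B promoters, against 1.03%. All 9 genes had a peak in both replicates, as had 15 of all 18 H2A and 13 of all 18 H2B genes. All of the 9 but Hist1h2af stood in head-to-head pairs whose genes shared a peak, so that they are not separate cases. The SP1 core GGGCGG, at 31 of 67 (46.3%), was as frequent as over all coding promoters, at 45.3%, with 10 of 13 in H4. TGACGTCA was present in 4 members (5.97%), against 2.51%, namely the pair of Hist1h2ag and Hist1h2bj, Hist1h4h and Hist1h4a. Head-to-head partners share part of their windows, so that their matches are not separate sites.

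**Figure D5:**
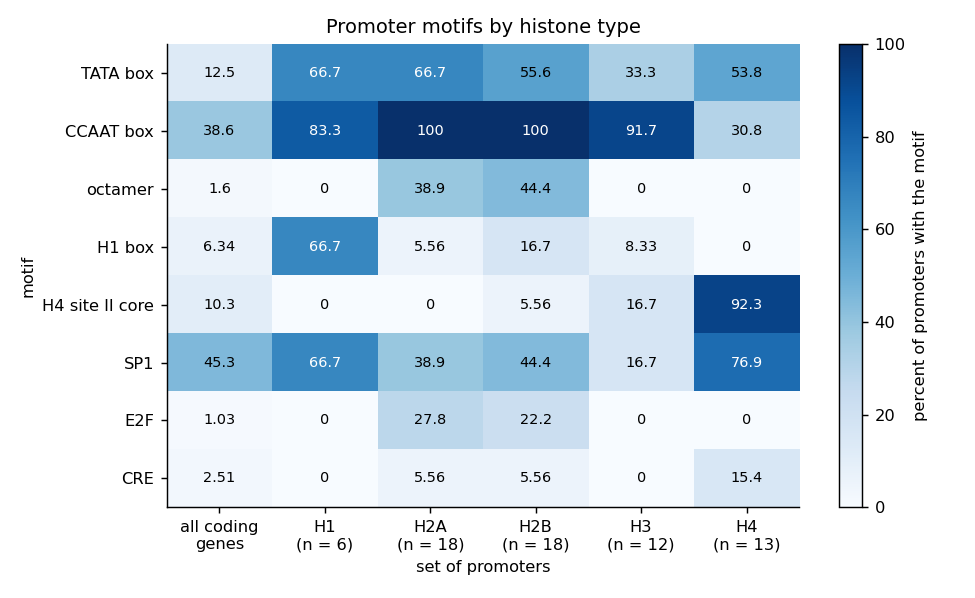
Percent of promoters that hold each motif, for all coding genes and for each histone type, with the percent written in each field. The H4 site II core is at 92.3% in H4 and the octamer at 38.9% and 44.4% in H2A and H2B.

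The member promoters had less G and C than accessible promoters usually had. The median GC content of the same windows was 45.7% for members, from 41.8% for H3 to 51.2% for H1, against 55.7% over all coding promoters and 60.3% over those with a peak in both replicates. The ratio of observed to expected CpG was 0.75 for members, against 0.556 over all coding promoters and 0.775 over those with a peak. It was 0.75 for the members with a peak in both replicates, 0.852 for the 18 with a peak in replicate 2 alone and 0.455 for the 5 with none.

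The 3′ stem-loop marked nearly all members. A stem of 6 bases around a loop of 4 that starts with TTT was found within 150 bp after the stop codon in 63 of 67 genes, at a median of 31 bp, against 0.268% of other coding genes. It was not found in Hist1h2an, Hist1h3g, Hist1h4a and Hist2h2be. In the forms below the stem is in capitals. The first form stood in 41 genes, H1, H2A, H2B and H3, and the form with an A at the end of the loop in 9 more. The forms with a GGCCC or GGTCC start were found in 12 H4 genes and in no other type.
Commonest form: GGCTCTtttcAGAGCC
Form of 9 genes: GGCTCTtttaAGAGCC
Form of 8 H4 genes: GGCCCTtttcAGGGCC
Another form, of 2 H4 genes: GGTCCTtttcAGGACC
All genes with no promoter peak in either replicate had this stem-loop, the testis genes among them.

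The replicates were compared by the tags at each summit. Replicate 2 had more tags at all 44 members with a peak in both, with a median ratio of 1.67 to replicate 1. The same ratio of 1.67 was found over all 6617 coding genes with a peak in both, while the backgrounds differed by 1.16. By a two-sided exact binomial test against the ratio of the backgrounds, with Benjamini-Hochberg adjustment over those 6617 genes, 0 of 44 members differed, against 6.3% of genes that were higher in replicate 2 and 0.0302% that were higher in replicate 1. At an unadjusted p under 0.05 there were 3, namely Hist3h2a, Hist2h3c2 and Hist4h4 (6.82%), against 24.7% of the 6617 genes. The test takes the best peak of each replicate, and for Hist2h3c2 the 2 summits were different sites, in its own promoter and in that of Hist2h2aa2. Over the 44 members the summits of the replicates lay a median of 104.5 bp apart, and more than 200 bp apart in 18. Adjusted p in the exact test ranged from 0.12 for Hist4h4 to 0.956, and the count stayed at 0 under the 3 alternatives tried. The test covers counting error between these 2 libraries only. Members that shared their peaks carry the same tags and p, so that the 44 tests are not separate. Member summits held 12 to 29 tags in replicate 1, against up to 19675 over all coding genes with a peak. Few tags leave the test little power, and the shares were not compared at equal tags. The study calls its samples independent, but the labels do not say whether they came from separate cultures, so their spread may be technical.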

How the data were processed

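The data are ATAC-seq peak lists of 2 replicate samples. The authors aligned read pairs to GRCm38 using Bowtie2, discarded duplicates and ran MACS2 on each sample. The paper lists the genome size setting of MACS2 as dm, the code for Drosophila, although the cells are from mouse. What this setting did to folds, q-values and the lowest peaks was not tested. Tool versions are not given in the sources used here, and no input control is named. The authors deposited, per peak, a score, a ratio (fold of summit tags over background) and 2 values on the −log10 scale, for p and q. The other deposited columns hold the start, end and summit. The score is 10 times the −log10 q cut to a whole number.

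Tags and background were solved from fold and p, which returned the deposited −log10 p within 1.52e-04. Genes, start sites and coding parts came from GENCODE vM21, sequence from GRCm38 and alternative start sites from RefSeq. Copies were counted over the assembly on both strands. The tools were numba 0.67.0, matplotlib 3.10.9, pandas 2.3.3, scipy 1.17.1, numpy 2.4.6 and Python 3.11.15, and the measures were tested on simulated data. Overlap meant at least 1 bp. Clusters were split where neighbouring members lay more than 200 kb apart. With 1 condition, no groups of samples were compared. Values rest on n = 2, and an SD from 2 samples is itself imprecise.

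The members and gene lists were chosen with earlier results of these data known. Values are given for the 2 highest and 2 lowest genes of each type by mean −log10 q, for genes with a peak in only 1 replicate or neither, for Hist3 and Hist4, and for Hist1h2ac and Hist1h4c, while every member is counted. From the other lists, the 3 highest genes and those without a peak in both replicates are named, but in the long lists of replication and ribosomal protein genes the latter are only counted, and 1 ribosomal protein gene is not reported here. Other genes, among them Hist1h3a, Hist1h4a and the pairs printed as sequence, were named after their values were seen. Alternatives concerned the promoter window, the threshold on q, the start sites, single-copy summits, pair distance, motif window and leaving out either replicate. The window around start codons and the single-copy stretch before them were added after seeing the data.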

Additional observations from a re-analysis of the deposited data

How the results depend on the processing

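Of 134 recomputed values, 99 kept within 1.5 times a count or within 1 SD of a value, and 35 moved. With summits restricted to single-copy sequence, members with a promoter peak in both replicates fell from 44 to 3, with 1 H2A, 0 H2B, 1 H3 and 1 H4 gene, and 1 in Hist1, 0 in Hist2 and 1 in Hist3. With −log10 q of at least 5 there were 23, with 8 H2B, 0 H3 and 5 H4 genes, and 19 in Hist1, 2 in Hist2 and 1 in Hist3. With −log10 q of at least 10 only Hist4h4 was left, a count of 1, with 0 H2A, 0 H2B, 0 H3 and 1 H4 gene and 0 in each of Hist1, Hist2 and Hist3. The median −log10 q then was 14.99, no pair lay under 1 peak in both replicates (0), and 71.7% of the peaks of the clusters lay at member promoters. In replicate 1, 1 of the 44 members with a peak reached 10, against 2452 of the 6884 coding genes with one. In replicate 2, 40 of 62 members did, against 5873 of 9559 coding genes. A promoter window of 1000 bp gave 9 H3 genes and a median summit 57.75 bp after the start site. With 200 bp of summit sequence, 30.8% of summits were multi-copy. The motif window of 150 bp held SP1 in 18 and E2F in 4 members. Windows around start codons moved the count to 45. Leaving out either replicate gave 44 to 62 members with a peak, 0 to 4 for H1, 5 to 12 for H3, 4 to 9 for Hist2, and 5 to 10 pairs under 1 peak. No paired analysis was possible because the 2 replicates belong to 1 group.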
